A study of Mus musculus with 12 samples.

Results

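The genes described here encode axon guidance cues and their receptors, namely semaphorins, plexins, neuropilins, ephrins, Eph receptors, Slits, Robo receptors, netrins and netrin receptors. They were taken by symbol from the array's annotation, which held 62 of them. A gene was tested where at least one of its probes had a detection p under 0.05 on 3 or more of 12 arrays, and 47 of the 62 met that rule, out of 12379 named genes tested. They comprised 15 semaphorins, 10 Eph receptors, 6 ephrins, 5 plexins, 3 Robo receptors, 3 netrin receptors, 2 neuropilins, 2 Slits and 1 netrin. Epha4, Epha5, Epha6 and Unc5a lay just inside the limit, each with its representative probe detected on 4 arrays, and Epha8 and Ephb3 just outside it with 2. The 15 genes below the limit were Dcc, Efna2, Efna3, Epha10, Epha8, Ephb3, Plxna1, Plxna3, Plxna4, Plxnb3, Sema3d, Sema3g, Sema4c, Sema6c and Slit1.

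RNA was measured on Illumina mouse BeadChips in hindbrain choroid plexus (CP), the epithelium of the brain ventricles that makes cerebrospinal fluid, and in tumors of that tissue. The 4 groups of 3 arrays were tumors at postnatal day 21 (P21), wild-type CP at P21, tumors at the day of birth (P0) and wild-type CP at P0. The tumor genotype was Math1-cre;Rosa26-NICD1. Cre expressed from Math1 switches on the Notch1 intracellular domain, an always active form of the receptor, from the Rosa26 locus, and the comparison mice were wild type. All mice were C57BL/6, and every sample was a pool of tissue from several animals of one genotype. Cre marks the cells that expressed Math1 and their descendants, so a tumor sample can also hold cells in which the Rosa26 allele was not switched on. Because tissue pieces were measured, fewer cells of a type and less RNA per cell cannot be told apart in any comparison below. The number of animals in a pool and their litters are not given, and p-values cover only the variation among these 3 pools per group, part of which may be technical.

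Guidance cues act in ligand and receptor pairs that steer growing axons, migrating cells and new blood vessels. Slits bind Robo receptors, netrins bind Dcc and Unc5 receptors, semaphorins bind plexins, with neuropilins as co-receptors for most of the secreted class, and ephrins bind Eph receptors on neighbouring cells. In the mouse brain the choroid plexus is a known source of Slit2, which reaches the cerebrospinal fluid and repels migrating neuroblasts.

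The arrays carried 45281 probes, and each array detected 19043 to 23632 of them. One BeadChip held all P21 arrays and the other all P0 arrays, which means that age cannot be told apart from BeadChip. Likewise genotype cannot be told apart from array position, since tumors occupied positions A to C and wild-type CP positions D to F of each, per the file headers. CP epithelium markers, such as the transthyretin gene Ttr, summed over 10 genes to a linear normalized signal of 205546 to 216766 in P21 tumors, 264069 to 270000 in P21 wild-type CP, 168567 to 221267 in P0 tumors and 203950 to 274593 in P0 wild-type CP. The tissue label thus fitted its markers in all groups, and 3 of the 10 genes were lower in tumors at each age. One library stood apart. P21 tumor sample 1 had a summed neuron marker signal of 33550 over 7 genes, against 2302 to 3815 on the other arrays, a cerebellar granule lineage signal of 39248 over 5 genes, against 3834 to 7123, and an oligodendrocyte signal of 12112 over 7 genes, against 1731 to 3369. Where a call of a guidance gene changed without this sample, the result without it is therefore also given. The same was done for some other guidance genes in which sample 1 was the highest P21 tumor array. Genes outside the guidance set are given only with it.

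Most guidance genes that passed at P21 were higher in tumors, among them both Slits, the ephrin-B genes, 3 plexins and Nrp2, and 3 secreted semaphorins and Epha1 were lower. In limma, with Benjamini-Hochberg adjustment over all genes and a threshold of 0.05, 20 of 47 passed at P21 (42.6%), 16 higher and 4 lower in tumors. Among all genes tested 17.9% passed at P21, 10.5% higher and 7.43% lower. At P0, 5 of 47 passed (10.6%), all 5 higher, against 11.3% of all genes, 5% higher and 6.29% lower, so the share at P0 was near the background. The unadjusted p was under 0.05 for 26 guidance genes at P21 (20 higher, 6 lower) and for 16 at P0 (13 higher, 3 lower). The median difference, tumor minus wild type, was 0.54 log2 units at P21, where that of all genes was -0.05, and 0.32 at P0, where that of all genes was -0.06. The 4 genes Slit2, Slit3, Sema4a and Ephb6 were higher at both ages and none was lower at both, where 5.36% of all genes passed in the same direction at both (2.5% higher and 2.87% lower). With the replicate number as a block, Ephb6 and Plxnb2 did not pass at P0 (adjusted p = 0.0556 and 0.0624). Sema3c then passed as lower at both ages (adjusted p = 0.00646 at P21 and 0.0336 at P0). Without the block Plxnb2 passed at P0 alone, 12 genes passed as higher at P21 alone and 4 as lower at P21 alone. Passing at one age alone does not show a difference between the ages, and that difference passed its own test for 3 genes, Efnb2, Robo1 and Epha1. All 20 genes that passed at P21 and all 5 that passed at P0 had tumor arrays that did not overlap the wild-type arrays. The overlap and the test use the same values, so this is no separate support. Arrays of tumor and wild type did not overlap for 27 of the 47 genes at P21 (57.4%) and for 45% of all genes, and for 16 at P0 (34%) and 24.8% of all genes.

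**Figure D1:**
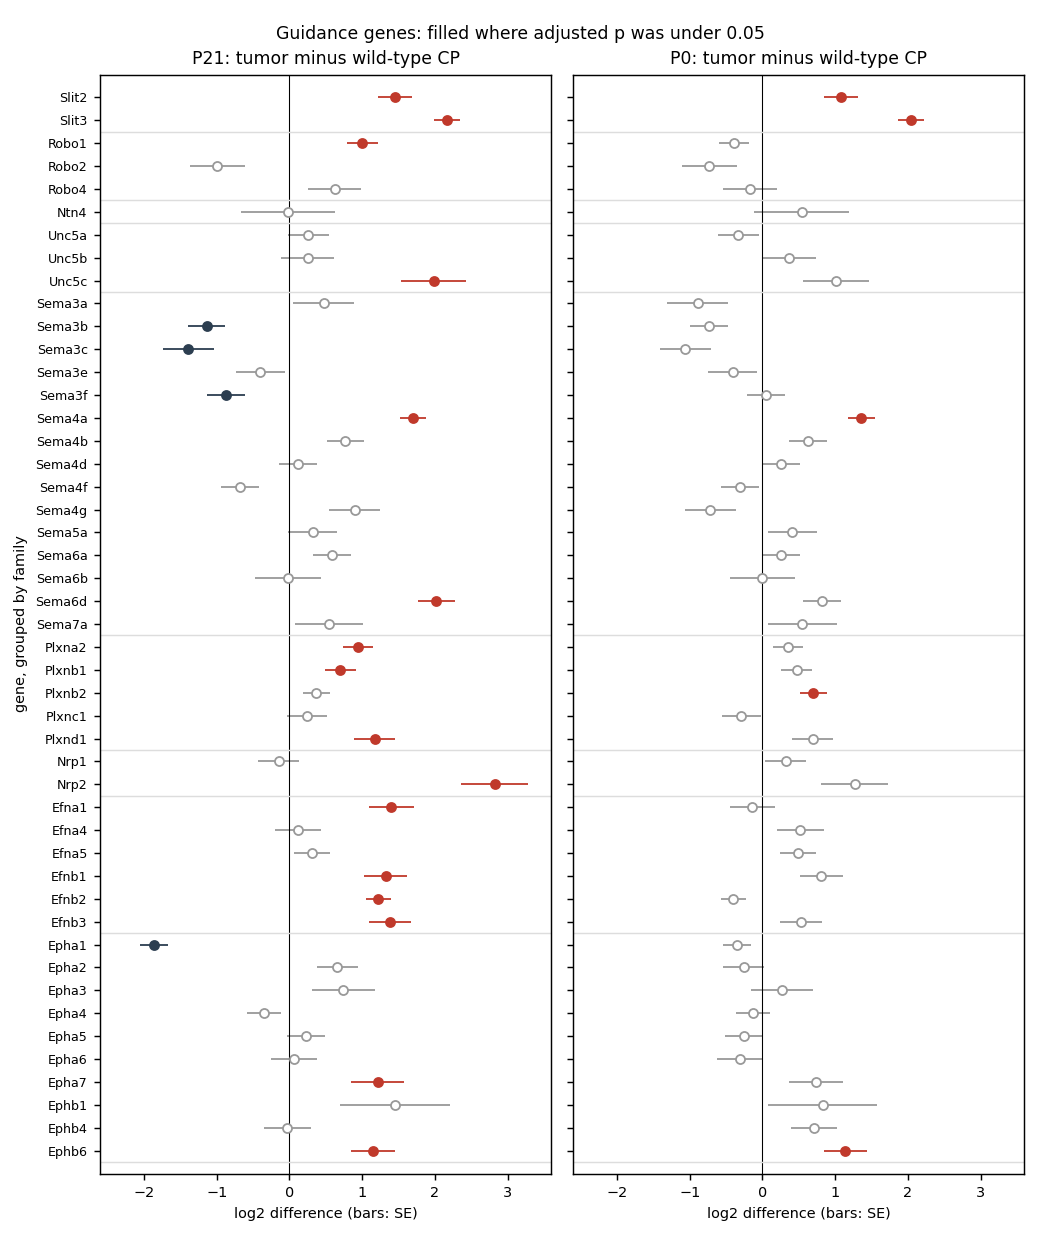
Difference in log2 normalized signal, tumor minus wild-type CP, of the 47 guidance genes at P21 (left) and P0 (right), grouped by family, with SE bars (n = 3 arrays per group). Filled points passed an adjusted p of 0.05 (20 at P21 and 5 at P0), red above 0 and dark blue below, and open points did not.

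Differences are in log2 units, and their SEs come from a residual variance shared by the 4 groups. Without P21 tumor sample 1 the P21 count was 18 (15 higher, 3 lower). It was 14 without P21 tumor sample 2. The P0 count was 3 without P0 tumor sample 1 or 3, and 2 when the P0 arrays were fitted alone (Slit3 and Sema4a). With median scaling, which moved the median of all genes at P0 by -0.113, the P0 count stayed at 5 but divided into 4 higher and 1 lower.

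Both Slit ligands measured were higher in tumors at both ages. Slit2 had log2 signals of 13.69, 13.82 and 13.70 in P21 tumors, against 12.25, 12.32 and 12.29 in P21 wild-type CP. At P0 it had 13.00, 13.81 and 12.95 in tumors, against 12.09, 12.36 and 12.06 in wild-type CP. No tumor array overlapped a wild-type array at either age, and the P21 arrays lay close together within each group. The difference was 1.45 ± 0.23 at P21 (SE, n = 3 per group, 2.73-fold, limma adjusted p = 0.000714) and 1.08 ± 0.23 at P0 (2.12-fold, adjusted p = 0.00955). At P0 the call was lost with median scaling (0.67, adjusted p = 0.066) and with the P0 arrays fitted alone (adjusted p = 0.0793). The other 4 probes of Slit2 differed in the same direction, by 1.05 to 2.06 at P21 and by 1.51 to 3.09 at P0. At P21 the probes with 1.05 and 1.34 did not pass (adjusted p over all probes 0.111 and 0.139).

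Slit3 had log2 signals of 10.08, 10.44 and 10.39 in P21 tumors, against 8.26, 8.02 and 8.15 in P21 wild-type CP. Its signals at P0 were 11.55, 11.64 and 11.43 in tumors, against 9.59, 9.57 and 9.34 in wild-type CP. No tumor array overlapped a wild-type array of its age, and the level was lower at P21 in both genotypes. The tumor difference was 2.16 ± 0.18 at P21 (4.47-fold, adjusted p = 4.76e-06) and 2.04 ± 0.18 at P0 (4.12-fold, adjusted p = 2.19e-05), and the 2 effects differed by 0.12 ± 0.25 (adjusted p = 0.866). Slit3 passed at both ages under every alternative tried, with 1.29 at P21 when probes were averaged. Its second probe (detected on 9 arrays) differed by 1.48 at P21 and 2.15 at P0, and another (on 3 arrays) by 0.22 and 0.97.

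The 250 bases upstream of the RefSeq gene starts (assembly GRCm38.p6, promoter side only, each read 5′ to 3′ on the gene's strand) are shown for the Slits because both genes were higher in tumors at both ages. That of Slit2 lies at chr5:47982905-47983154 on the plus strand with a GC content of 69.6%, and that of Slit3 at chr11:35121206-35121455 on the plus strand with 78.8%. Neither held any of the 4 motifs searched on both strands, which says only that these letters are not in these windows, and so no base is capitalised.
Slit2: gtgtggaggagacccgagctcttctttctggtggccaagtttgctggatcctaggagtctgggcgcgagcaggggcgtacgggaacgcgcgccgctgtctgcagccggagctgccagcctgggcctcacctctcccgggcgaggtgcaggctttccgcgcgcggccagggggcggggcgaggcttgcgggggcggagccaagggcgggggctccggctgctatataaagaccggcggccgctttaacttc
Slit3: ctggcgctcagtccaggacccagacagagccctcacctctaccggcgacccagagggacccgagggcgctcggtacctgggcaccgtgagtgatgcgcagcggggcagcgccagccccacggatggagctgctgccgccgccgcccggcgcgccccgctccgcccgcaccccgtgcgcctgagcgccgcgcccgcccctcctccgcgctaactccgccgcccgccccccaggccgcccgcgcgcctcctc

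The motifs were TGGGAA, the core bound by RBPJ, the DNA-binding partner of the Notch intracellular domain, CTTTGAT of the Wnt effectors TCF and LEF, CACGTG, an E-box bound by Hes and Hey repressors, and GACCACCCA of the hedgehog effectors GLI. Promoter windows were given for 43 of the 47 guidance genes, and not for Efnb3, Sema3b, Sema3f and Sema6a. TGGGAA occurred in windows of 11 of the 43 genes (25.6%) and of 24.1% of all genes in the table, and in 21.6% of 32851 windows. The 11 genes included Efnb1, Epha7, Plxnb2, Sema4a and Sema6d. They also included Epha4, Epha6, Plxnc1, Robo2, Sema4d and Sema5a, which passed no tumor comparison. CACGTG was found in 3 of the 43 (Robo2, Sema4b and Sema6d, 6.98%) and in 6.86% of all genes, CTTTGAT in 1 (Nrp2, 2.33%) and in 3.72%, and GACCACCCA in 0 and in 0.255%. The shares of all windows were 6.02%, 3.21% and 0.225%. A match describes the sequence and is not evidence of a bound site.

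Of the 3 Robo receptors, Robo1 passed, as higher in P21 tumors. Robo1 had log2 signals of 8.78, 8.49 and 8.37 in P21 tumors, against 7.66, 7.23 and 7.74 in P21 wild-type CP. At P0 the order of the group means was the other way, with 8.11, 8.58 and 8.12 in tumors, against 8.60, 8.82 and 8.57 in wild-type CP, and the arrays overlapped. The difference was 1.00 ± 0.21 at P21 (adjusted p = 0.00561) and -0.39 ± 0.21 at P0 (adjusted p = 0.283). A second Robo1 probe, detected on 5 arrays, gave 0.09 at P21 (adjusted p over all probes 0.864), so the 2 probes disagreed, and their mean gave 0.55 (0.0449). Robo2 did not pass at P21 (-0.99 ± 0.38, adjusted p = 0.0973) or at P0 (-0.73 ± 0.38, 0.254). Robo4, the Robo receptor of blood vessels, did not pass either (0.62 ± 0.37, 0.296, at P21 and -0.17 ± 0.37, 0.824, at P0).

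Of the netrin system, the receptor gene Unc5c passed, as higher in P21 tumors. Its log2 signals were 9.53, 8.18 and 7.27 in P21 tumors, against 6.48, 6.26 and 6.28 in P21 wild-type CP. The tumor arrays were widely spread, with the highest value in sample 1, the library with the raised neuron markers, yet all 3 lay above wild type. The difference was 1.98 ± 0.45 (adjusted p = 0.00818), and 1.38 ± 0.33 without that sample (adjusted p = 0.0124). A second probe gave 2.24 (adjusted p over all probes 0.00347). At P0 the Unc5c difference of 1.01 ± 0.45 did not pass (0.182). The receptors Unc5a and Unc5b did not pass (0.26 and 0.25 at P21, -0.33 and 0.37 at P0), nor did the basement membrane netrin Ntn4 (-0.02 ± 0.65 at P21 and 0.54 ± 0.65 at P0).

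Of 15 semaphorins, 5 passed at P21 (33.3%), 2 higher and 3 lower in tumors, and 1 passed at P0 (6.67%). Of all genes 17.9% passed at P21 and 11.3% at P0. Of the 5 secreted class 3 genes, 3 were lower in P21 tumors and none higher (median -0.87), and of the 10 membrane-bound genes of classes 4 to 7, 2 were higher and none lower (median 0.56). At P0 none of the secreted and 1 of the membrane-bound genes passed (medians -0.74 and 0.33). These counts describe the classes, and no test set one class against the other.

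Sema4a, a membrane-bound ligand of plexins, had log2 signals of 9.31, 9.40 and 9.19 in P21 tumors, against 7.54, 7.56 and 7.71 in P21 wild-type CP. Its P0 signals were 9.49, 9.11 and 9.21 in tumors, against 8.02, 8.01 and 7.69 in wild-type CP. Every tumor array was more than 1 log2 unit above every wild-type array of its age. The difference was 1.70 ± 0.18 at P21 (3.25-fold, adjusted p = 3.87e-05) and 1.36 ± 0.18 at P0 (2.57-fold, adjusted p = 0.000473), and it passed under every alternative tried. Of the 4 RefSeq start sites of Sema4a, the window at chr3:88461183-88461432 (GRCm38.p6, minus strand, GC content 59.6%) is shown because it holds 2 TGGGAA matches, in capitals, which begin 194 and 98 bases before the start. The windows of its other start sites held none of the searched motifs, and which start is used in these tissues was not tested.
Sema4a: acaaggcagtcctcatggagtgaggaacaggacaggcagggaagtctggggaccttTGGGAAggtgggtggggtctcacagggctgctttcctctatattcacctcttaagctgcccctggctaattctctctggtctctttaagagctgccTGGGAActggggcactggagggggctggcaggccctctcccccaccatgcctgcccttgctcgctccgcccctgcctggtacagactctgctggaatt

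Sema6d, a membrane-bound ligand of class A plexins, was higher in P21 tumors. It had 11.39, 11.13 and 11.00 in P21 tumors, against 9.00, 9.07 and 9.39 in P21 wild-type CP. No tumor array came near a wild-type array, and the difference was 2.02 ± 0.26 (4.05-fold, adjusted p = 0.000176). Other Sema6d probes, detected on 6 and 4 arrays, gave 0.85 and 1.43 at P21 and did not pass (adjusted p over all probes 0.16 and 0.0801). At P0 Sema6d had 10.78, 11.00 and 10.69 in tumors, against 9.40, 10.11 and 10.50 in wild-type CP. The P0 arrays did not overlap either, but the difference of 0.82 ± 0.26 did not pass (adjusted p = 0.0625). It passed without P0 wild-type sample 3 (1.07, adjusted p = 0.0268), without background correction (0.76, 0.0457) and with the authors' normalized values (0.73, 0.0469).

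The 3 semaphorins that were lower were all secreted. Sema3b had 9.82, 10.30 and 10.18 in P21 tumors, against 11.41, 11.17 and 11.14 in P21 wild-type CP (-1.14 ± 0.26, adjusted p = 0.00818). Sema3c had 5.86, 5.46 and 6.04 in P21 tumors, against 7.63, 6.42 and 7.51 in P21 wild-type CP (-1.39 ± 0.35, adjusted p = 0.0141). Wild-type sample 2 was the lowest of its group for Sema3c, and the gene was detected on 2 of the 3 P21 tumor arrays. Sema3f had 10.76, 11.22 and 10.97 in P21 tumors, against 11.62, 11.97 and 11.97 in P21 wild-type CP (-0.87 ± 0.26, adjusted p = 0.0377). At P0 Sema3b and Sema3c were also below wild type on every tumor array without passing (-0.74 ± 0.26, adjusted p = 0.0879, and -1.06 ± 0.35, adjusted p = 0.0714), and Sema3f differed by 0.05 ± 0.26. With the replicate number as a block, Sema3c passed at P0 (adjusted p = 0.0336). The P21 call of Sema3f was lost without any one of the 6 P21 arrays (adjusted p = 0.0554 to 0.13), and that of Sema3c without tumor sample 2 (0.0665), wild-type sample 1 (0.0708) or wild-type sample 3 (0.0625). A second Sema3f probe, also detected on all 12 arrays, gave -1.08 at P21 (adjusted p over all probes 0.013), and another, on 8 arrays, gave -0.73 (0.233). Of the other Sema3b probes, 1 passed at P21 (-0.99, 0.0249), and those with -0.44 (0.309, on 12 arrays) and -0.97 (0.256) did not. The other Sema3c probe, on 3 arrays, gave -0.67 (0.0947).

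The other 10 semaphorins did not pass at either age. For Sema3a the tumor signals at P21 were 6.84, 5.66 and 5.11, and without sample 1, the highest, the measured difference was -0.02 (0.47 with it, adjusted p = 0.517). Among the secreted ones these were Sema3a (-0.89 at P0), which no P21 wild-type array detected, and Sema3e (-0.40 at P21), which no P0 tumor array detected. Among the membrane-bound ones Sema4b came closest, at 0.77 ± 0.26 at P21 (adjusted p = 0.06) and 0.63 ± 0.26 at P0 (0.149), with tumor arrays above wild type at both ages. Sema4d, Sema4f, Sema4g, Sema5a, Sema6a, Sema6b and Sema7a differed by -0.68 to 0.90 at P21 and by -0.72 to 0.55 at P0. Without P21 tumor sample 1 the P21 difference was 0.54 for Sema4g (0.90 with it) and -0.59 for Sema6b (-0.02 with it), and neither passed.

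Receptors of semaphorins were higher in tumors where they passed. Of 5 plexins 3 passed at P21 and 1 at P0, and of 2 neuropilins 1 passed at P21. Of all genes 17.9% passed at P21 and 11.3% at P0, and families this small give only coarse shares. Nrp2, the co-receptor of Sema3f and of the lymphatic growth factor VEGF-C, had 7.67, 8.71 and 8.90 in P21 tumors, against 6.05, 5.21 and 5.56 in P21 wild-type CP. It was detected on 1 of the 3 P21 wild-type arrays, and its difference of 2.82 ± 0.46 (7.06-fold, adjusted p = 0.000984) was the largest of the 47 at P21. At P0 Nrp2 had 8.80, 7.50 and 8.60 in tumors, against 7.94, 6.47 and 6.67 in wild-type CP, and these arrays overlapped. The P0 difference of 1.27 ± 0.46 did not pass (adjusted p = 0.101), but passed without P0 tumor sample 2 (1.67, 0.0392), without P0 wild-type sample 1 (1.73, 0.0301) or with median scaling (1.34, 0.0486). With probes averaged the P21 difference was 1.49 (0.00101). A second Nrp2 probe (detected on 5 arrays) gave 1.90 at P21 (adjusted p over all probes 0.000246), and another, detected on 3 arrays, gave -0.24. Nrp1, the co-receptor of Sema3a and of VEGF, did not pass (-0.15 ± 0.28 at P21 and 0.32 ± 0.28 at P0).

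Among plexins, Plxna2 had 9.40, 9.62 and 9.80 in P21 tumors, against 8.64, 8.66 and 8.71 in P21 wild-type CP (0.94 ± 0.21, adjusted p = 0.00783). Plxnd1, the receptor of Sema3e and a plexin of developing vessels, had 9.67, 10.18 and 9.82 in P21 tumors, against 8.49, 8.39 and 9.26 in P21 wild-type CP (1.17 ± 0.28, adjusted p = 0.0105). Plxnb1, a receptor of class 4 semaphorins, had 8.90, 9.26 and 9.04 in P21 tumors, against 8.27, 8.33 and 8.50 in P21 wild-type CP (0.70 ± 0.21, adjusted p = 0.0367). For these genes the tumor arrays were all above wild type, by the smallest margin for Plxnb1 and Plxnd1. The Plxnd1 call was lost without P21 tumor sample 2 (0.0544), wild-type sample 1 (0.0513) or wild-type sample 2 (0.057), and that of Plxnb1 without any one P21 array other than tumor sample 1 (0.0637 to 0.149). Other Plxnd1 probes, detected on 12 and 8 arrays, gave 0.68 and 0.94 at P21 and did not pass (adjusted p over all probes 0.0779 and 0.0723). At P0 these plexins did not pass (0.35 for Plxna2, 0.69 for Plxnd1 and 0.47 for Plxnb1). Plxnb2, another class 4 receptor, passed at P0, with 12.72, 12.64 and 12.69 in tumors, against 11.73, 12.24 and 11.99 in wild-type CP (0.70 ± 0.19, adjusted p = 0.0319). At P21 it had 11.88, 12.16 and 12.25 in tumors, against 11.77, 11.84 and 11.57 in wild-type CP, and did not pass (0.37 ± 0.19, 0.213). The P0 call was lost with median scaling (0.35, 0.308), with the replicate block (0.0624) and without any one of P0 tumor samples 1 and 3 and P0 wild-type samples 1 and 3 (0.0789 to 0.0917). Plxnc1, the receptor of Sema7a, did not pass (0.24 at P21 and -0.29 at P0).

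**Figure D2:**
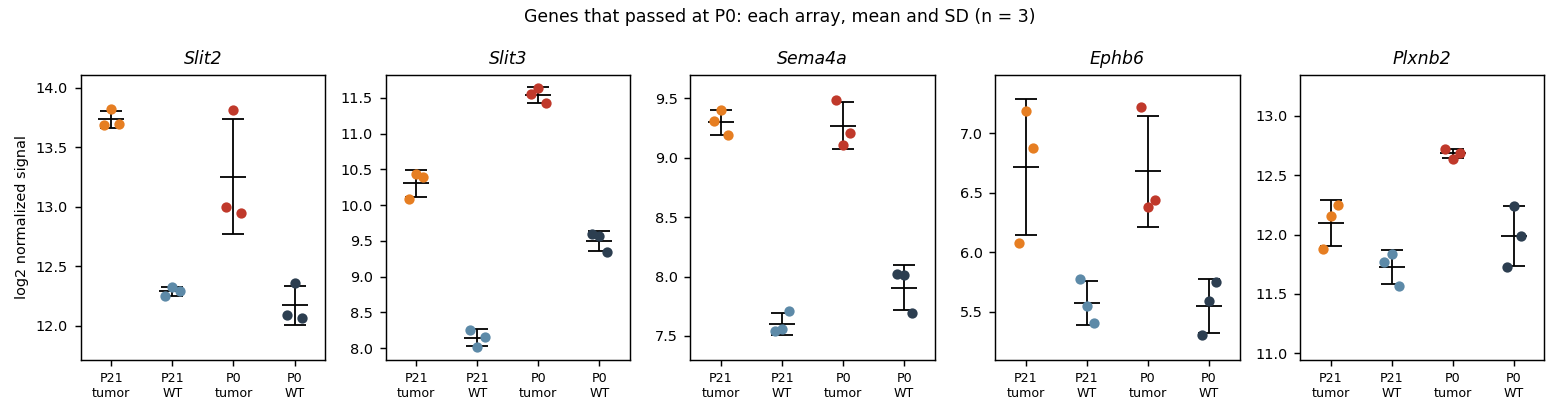
Log2 normalized signal of each array for the 5 genes that passed at P0, with the mean and SD of each group (n = 3). Tumor arrays lie above wild-type arrays of the same age in all panels, Slit3 is lower at P21 than at P0 in both genotypes, and each panel has its own vertical range.

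Ephrins passed at P21 and not at P0. Of the 6 measured, 4 were higher in P21 tumors, namely all 3 transmembrane ephrin-B genes and 1 of 3 ephrin-A genes, whose products are anchored by a lipid. Of all genes 10.5% were higher at P21, and 11.3% passed in either direction at P0. Efnb2, an ephrin of arteries in blood vessel development, had 7.04, 7.22 and 7.02 in P21 tumors, against 5.95, 5.92 and 5.77 in P21 wild-type CP (1.22 ± 0.17, adjusted p = 0.000309). Efnb1 had 8.91, 9.70 and 9.80 in P21 tumors, against 8.09, 8.08 and 8.28 in P21 wild-type CP (1.32 ± 0.29, adjusted p = 0.00646). The 3 wild-type arrays lay close together for both genes, and tumor sample 1 was the lowest tumor array for Efnb1. Efnb3 had 7.50, 8.47 and 7.72 in P21 tumors, against 6.86, 5.97 and 6.71 in P21 wild-type CP (1.38 ± 0.29, adjusted p = 0.00508). Efna1 had 6.85, 7.88 and 7.76 in P21 tumors, against 6.10, 6.25 and 5.95 in P21 wild-type CP (1.40 ± 0.31, adjusted p = 0.00746). All 4 kept their P21 calls under every alternative tried. Without background correction the differences were smaller for Efnb2 (0.55), Efnb3 (0.79) and Efna1 (0.72), and Efnb2 was detected on 2 of the 3 P21 wild-type arrays. At P0 the ephrin-B genes differed by 0.81 (Efnb1, adjusted p = 0.0936), -0.40 (Efnb2) and 0.53 (Efnb3), and Efna1 by -0.14. Efna4 and Efna5 did not pass (0.12 and 0.31 at P21, 0.52 and 0.49 at P0). Without P0 wild-type sample 2, Efnb1 passed at P0 (1.05, adjusted p = 0.0378).

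The Eph receptors that passed moved in both directions. Of 10, 2 were higher and 1 lower in P21 tumors (30% passed), and 1 was higher at P0 (10%). Of all genes 17.9% passed at P21 and 11.3% at P0, so the P0 share was near the background. Epha1, an ephrin-A receptor, was lower, with 5.47, 5.49 and 5.82 in P21 tumors, against 7.32, 7.65 and 7.38 in P21 wild-type CP. It was detected on 2 of the 3 P21 tumor arrays and on all others, and the difference was -1.86 ± 0.19 (adjusted p = 2.68e-05), or -0.86 without background correction. A second Epha1 probe, detected on 7 arrays, gave -0.79 (adjusted p over all probes 0.191). Ephb6, a member without kinase activity, had 6.08, 7.19 and 6.88 in P21 tumors, against 5.77, 5.55 and 5.40 in P21 wild-type CP (1.15 ± 0.30, adjusted p = 0.0188). Its P0 signals were 7.22, 6.38 and 6.44 in tumors, against 5.30, 5.59 and 5.75 in wild-type CP (1.14 ± 0.30, adjusted p = 0.0304). It was detected on 1 of 3 wild-type arrays at each age and on every tumor array, so the wild-type level was near background. Without single arrays the Ephb6 adjusted p reached 0.0927 at P21 (without tumor sample 2) and 0.11 at P0 (without tumor sample 1), with further calls lost on leaving out P21 tumor sample 3, P21 wild-type sample 2 or 3, P0 tumor sample 3 or any P0 wild-type sample. Without background correction the Ephb6 difference was 0.49 at P21 (adjusted p = 0.0558) and 0.47 at P0 (0.0791). With the authors' normalized values it was 0.55 at P21 (0.0442) and 0.54 at P0 (0.0632), and the P0 call was also lost with the replicate block (0.0556) and with the P0 arrays fitted alone (0.0675).

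Epha7, another ephrin-A receptor, had 8.68, 7.87 and 7.55 in P21 tumors, against 6.88, 6.90 and 6.69 in P21 wild-type CP. The difference was 1.21 ± 0.37 (adjusted p = 0.0412), and 0.89 without tumor sample 1, the highest array, where it did not pass (adjusted p = 0.144). It also did not pass without tumor sample 2 or any one wild-type sample (0.081 to 0.12). The call was kept in 6 of 16 alternatives. It was also lost with the authors' normalized values (0.76, adjusted p = 0.0969) and without background correction (0.75, 0.111). The same held with an offset of 50 (0.0592), no detection filter (0.0644) or the mean of probes (0.0544). At P0 Epha7 differed by 0.74 ± 0.37 (0.246). The other receptors did not pass at either age. Ephb1 had 9.18, 6.33 and 5.22 in P21 tumors, against 5.73, 4.96 and 5.70 in P21 wild-type CP, with sample 1 far above the rest. Its difference was 1.45 ± 0.75 at P21, 0.31 ± 0.43 without that sample, and 0.83 ± 0.75 at P0, and arrays overlapped at both ages. Ephb4, the receptor paired with Efnb2 in vessels, differed by -0.03 ± 0.32 at P21 and 0.71 ± 0.32 at P0. Epha2 was not detected on any P21 wild-type array and did not pass (adjusted p = 0.142). Epha3, Epha4, Epha5 and Epha6 had measured differences of -0.35 to 0.74 at P21 and of -0.31 to 0.27 at P0. The P21 difference of Epha3 was 0.29 without tumor sample 1 (0.74 with it). Epha5 and Epha6 were not detected in P21 wild-type CP nor Epha4 in P0 tumors, and signals there are at background.

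**Figure D3:**
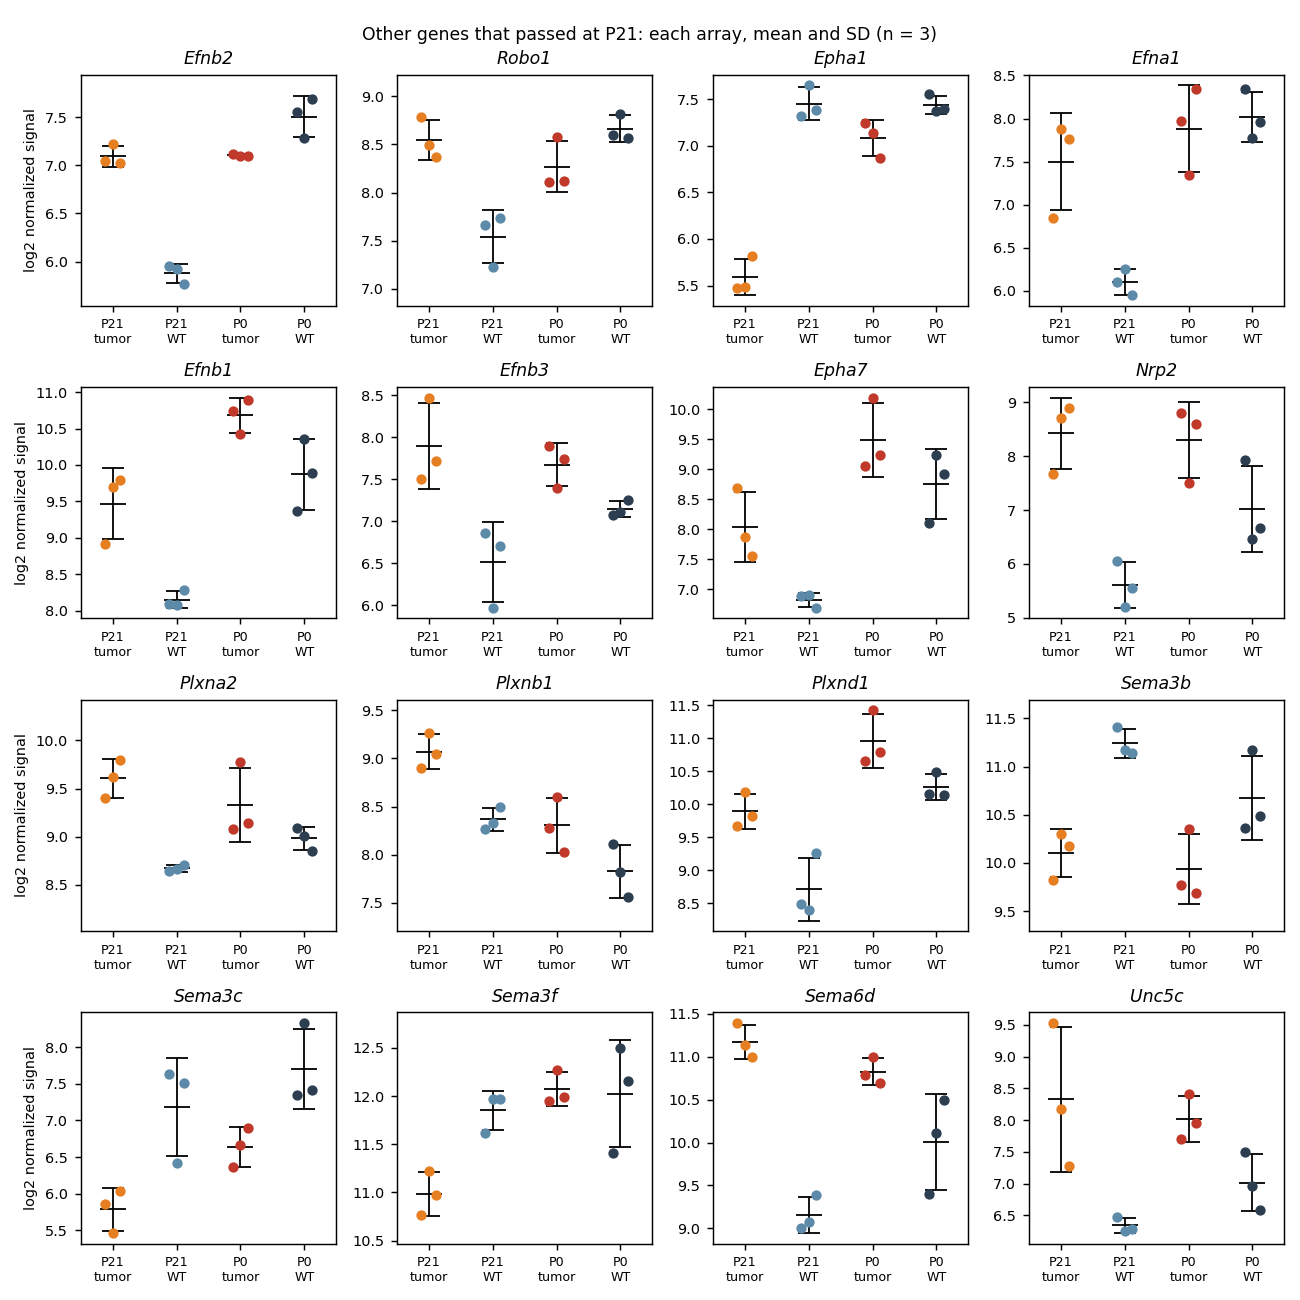
Log2 normalized signal of each array for the 16 guidance genes that passed at P21 and are not among those that passed at P0, with the mean and SD of each group (n = 3). Wild-type arrays at P21 are the lowest group for Efnb2 and Robo1, tumor arrays at P21 are the lowest for Epha1, and each panel has its own vertical range.

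The tumor effect differed between the ages for 3 of 47 genes (6.38%), 2 with a larger and 1 with a smaller value at P21, against 4.4% of all genes (3.13% larger and 1.27% smaller). The unadjusted p was under 0.05 for 10 (8 larger, 2 smaller). Efnb2 differed by 1.61 ± 0.24 (SE, adjusted p = 0.00278), from a tumor effect of 1.22 at P21 and -0.40 at P0. Its P0 signals were 7.12, 7.10 and 7.10 in tumors, against 7.55, 7.28 and 7.69 in wild-type CP. Between the ages Efnb2 differed by -0.01 ± 0.17 in tumors and by -1.63 ± 0.17 in wild-type CP (P21 minus P0). The effect on Robo1 differed by 1.39 ± 0.30 (adjusted p = 0.0207), again with a lower wild-type level at P21. For Epha1 the effects differed by -1.51 ± 0.26 (adjusted p = 0.00713). Its P0 signals were 7.24, 7.14 and 6.87 in tumors, against 7.55, 7.37 and 7.39 in wild-type CP, so here the P21 tumors stood apart from the other 3 groups.

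The Efnb2 call held under every alternative tried, with a smallest value of 0.78 without background correction, where that of Epha1 was -0.66 (adjusted p = 0.0405). That of Robo1 was lost without P0 tumor sample 1 (0.0502) or 3 (0.0639), P21 tumor sample 2 (0.055) or P21 wild-type sample 2 (0.0641) and with the mean of probes (0.0635), and that of Epha1 with the mean of probes (0.061). Without P21 tumor sample 1 all 3 passed, and Efna1 passed as well (1.86, adjusted p = 0.0175, against 1.54 and 0.0729 with it). Promoter windows of Efnb2 at chr8:8661243-8661492 (minus strand, GC content 72.0%) and Epha1 at chr6:42373269-42373518 (minus strand, GC content 54.4%), both GRCm38.p6, are shown because their tumor effects differed between the ages in opposite directions. Neither held a searched motif, so no base is capitalised.
Efnb2: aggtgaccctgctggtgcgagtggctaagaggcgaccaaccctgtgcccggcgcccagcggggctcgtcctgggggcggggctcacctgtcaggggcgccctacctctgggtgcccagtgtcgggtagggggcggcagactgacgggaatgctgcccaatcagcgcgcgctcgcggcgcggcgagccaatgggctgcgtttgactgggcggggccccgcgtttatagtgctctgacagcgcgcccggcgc
Epha1: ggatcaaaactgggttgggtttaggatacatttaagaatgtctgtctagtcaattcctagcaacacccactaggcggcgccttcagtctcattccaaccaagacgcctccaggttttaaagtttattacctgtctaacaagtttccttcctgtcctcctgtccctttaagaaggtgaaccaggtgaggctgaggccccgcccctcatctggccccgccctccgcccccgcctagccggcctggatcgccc

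Markers of other cell types moved with the P21 comparison. Of 8 astrocyte markers tested, 6 were higher and 1 lower in P21 tumors (median 2.16), with summed signals of 33423 to 89205 in tumors, against 8717 to 10561 in wild-type CP. Of 10 macrophage and microglia markers 6 were higher (median 1.18), with sums of 6023 to 9793 and 3281 to 3333, and the macrophage gene Lyve1 was not detected in P21 wild-type CP. Pericyte and smooth muscle markers summed to 14147 to 27467 in P21 tumors and 3351 to 6022 in P21 wild-type CP. Of these 10 markers 2 were higher and 1 lower (median 0.17). Most of the tumor sums came from the smooth muscle gene Acta2, at 13.53, 14.60 and 14.22 log2 in P21 tumors. The other higher gene, Tagln of smooth muscle, was not detected in P21 wild-type CP, and the lower gene was Abcc9 (-1.09 ± 0.28). Fibroblast markers summed to 98539 to 102616 in P21 tumors and 91024 to 96739 in P21 wild-type CP, with 5 of 11 higher and 1 lower. Of 12 endothelial markers 1 was higher (median 0.31), with overlapping sums of 12738 to 17473 and 9518 to 20052. In limma 0 of 7 neuron markers (median 0.66) and 0 of 7 oligodendrocyte markers (median -0.07) passed at P21, and 0 of either had an unadjusted p under 0.05, with sample 1 far above the other tumors in both sums, and 1 of the 5 granule lineage markers was higher. At P0 all 11 dividing-cell markers were higher in tumors (median 2.41, sums of 26312 to 29147 and 5473 to 7159). Astrocyte sums at P0 did not overlap (27820 to 35466 in tumors, against 22069 to 23112 in wild-type CP), with Slc1a3 higher and Aldh1l1 lower among 8 markers. The median difference of these 8 markers was nonetheless below 0, at -0.28. Of the P0 macrophage markers Mrc1 and Lyve1 were higher and Ctss lower (sums of 6953 to 10374 and 5486 to 7452), and of the fibroblast markers Col1a2 and Fbln1 were higher and Pdgfra lower (sums of 84854 to 95096 and 88721 to 100548). No endothelial marker passed at P0 (unadjusted 1 higher and 1 lower, median 0.15). The part of these cell types in the guidance gene results was not tested.

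**Figure D4:**
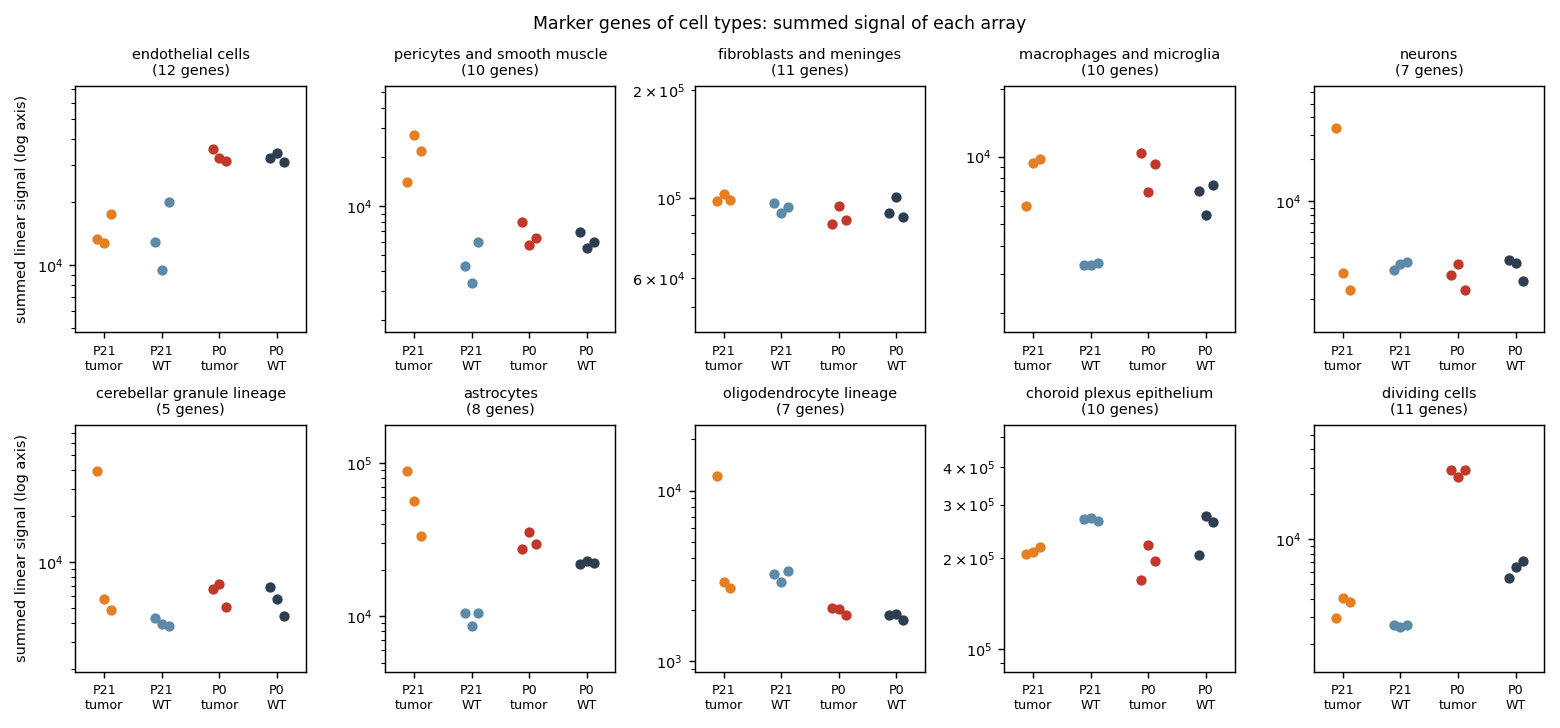
Summed linear normalized signal of the marker genes of 10 cell types in each array, on a log axis. P21 tumor sample 1 stands above the other 11 arrays for neurons (33550), the granule lineage (39248) and the oligodendrocyte lineage (12112). P21 tumors lie above P21 wild-type CP for astrocytes, macrophages and the joint list of pericytes and smooth muscle. In P21 tumors the sum of that joint list is mostly the smooth muscle gene Acta2.

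Most guidance genes that passed with age were lower at P21. In wild-type CP 17 of 47 passed (36.2%), 16 lower and 1 higher at P21, against 20.3% of all genes (13% lower and 7.37% higher). In tumors 13 passed (27.7%), 12 lower and 1 higher, against 20.1% of all genes (10.2% lower and 9.9% higher). The medians were -0.54 in wild-type CP and -0.06 in tumors, and those of all genes -0.05 and -0.03. In all 23 genes passed in at least one genotype, and 7 were lower at P21 in both (Slit3, Robo2, Robo4, Sema6a, Plxnd1, Efnb1 and Epha7). Without P21 tumor sample 1 the tumor count was 9, and without P21 wild-type sample 1 or 2 the wild-type count was 11.

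Robo4 had 10.43, 10.23 and 11.08 in P21 tumors, against 12.39, 12.63 and 12.08 in P0 tumors (-1.79 ± 0.37, 3.45-fold lower, adjusted p = 0.00436). In wild-type CP it had 9.80, 9.25 and 10.83 at P21, against 12.72, 12.74 and 12.15 at P0 (-2.58 ± 0.37, 5.98-fold lower, adjusted p = 0.000462). The P21 arrays were all below the P0 arrays in each genotype, and with probes averaged the differences were -0.80 in tumors and -1.46 in wild-type CP. Sema6a, a ligand of class A plexins, had 8.09, 7.13 and 7.56 in P21 tumors, against 8.98, 9.71 and 9.20 in P0 tumors (-1.70 ± 0.26, adjusted p = 0.00051). In wild-type CP Sema6a had 6.91, 7.10 and 7.02 at P21, against 9.16, 9.07 and 8.88 at P0 (-2.03 ± 0.26, adjusted p = 0.000205). Both genes were thus lower at P21 in each genotype with no overlap of arrays.

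Slit3 was lower at P21 in tumors (-1.24 ± 0.18, adjusted p = 0.00034) and in wild-type CP (-1.36 ± 0.18, adjusted p = 0.000249), and Efnb1 likewise (-1.21 ± 0.29, adjusted p = 0.00998, and -1.72 ± 0.29, adjusted p = 0.00123). In wild-type CP the smallest adjusted p was that of Efnb2 (-1.63 ± 0.17, adjusted p = 5.47e-05), followed further down by Efna1 (-1.92 ± 0.31, 0.00104), Plxnd1 (-1.55 ± 0.28, 0.00203) and Robo1 (-1.12 ± 0.21, 0.0029). Efnb2, Efna1 and Robo1 did not pass in tumors (-0.01, -0.39 and 0.27). Sema3a, a repulsive cue, and Epha2 were not detected on any P21 wild-type array and were at least 1.98-fold and 1.35-fold lower there (adjusted p = 0.042 and 0.019). The other genes lower at P21 in wild-type CP were Epha7 (-1.93 ± 0.37), Sema4g (-1.50), Robo2 (-1.24), Sema6d (-0.85), Nrp2 (-1.42) and Plxnc1, with adjusted p of 0.00333 to 0.0463. The brightest Plxnc1 probe was not detected on any P21 wild-type array, so no fold is given. The calls of Nrp2 and Sema3a were each kept in 3 of 14 alternatives, that of Robo2 in 4 of 14 and that of Sema6d in 7 of 15. With probes averaged, Nrp2 differed by -0.41 and Sema6d by -0.40. The one gene higher at P21 in wild-type CP was Ntn4, with 9.40, 9.64 and 8.42 at P21, against 5.01, 7.59 and 8.01 at P0 (2.28 ± 0.65, adjusted p = 0.0267). Its call was lost without P21 wild-type sample 1 (0.087) or 2 (0.0986). P0 wild-type sample 1 was far below the other P0 arrays, and without it the difference was 1.36 (0.0486). In tumors Ntn4 was also higher on every P21 array than on any P0 array, without passing (1.72 ± 0.65, adjusted p = 0.0827). It passed there in 5 of 14 alternatives. A second Ntn4 probe, detected on 11 arrays, was higher at P21 in wild-type CP (1.75, adjusted p over all probes 0.0068) and in tumors (2.11, 0.002).

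In tumors the smallest adjusted p was that of Epha1 (-1.49 ± 0.19, adjusted p = 0.000135), which did not pass in wild-type CP (0.01). Sema3f (-1.08 ± 0.26, 0.0116), Nrp1 (-1.11 ± 0.28, 0.0142) and Robo2 (-1.49 ± 0.38, 0.0149) were also lower in P21 tumors, and Plxnb1 was higher (0.77 ± 0.21, 0.0227). The other genes lower in P21 tumors were Epha7 (-1.45), Plxnd1 (-1.06), Efna4 (-1.16) and Plxnb2 (-0.59), with adjusted p of 0.016 to 0.0436. Without P21 tumor sample 1 the calls of Robo2 (-1.25, 0.0549), Efna4, Plxnb2 and Plxnd1 were lost. Plxnb2 kept its call in 7 of 15 alternatives. The Epha7 call was lost without P0 tumor sample 2 or P21 tumor sample 2 or 3 (0.053 to 0.0614). The Nrp1 call was lost without P21 tumor sample 2 (0.0561), that of Robo2 without P0 tumor sample 3 (0.0553), and that of Plxnb1 without P0 tumor sample 1 or 3 or P21 tumor sample 2 or 3 (0.0537 to 0.0956). Endothelial markers moved with age as well. Of 12, 10 were lower in P21 tumors (median -1.28) and 8 in P21 wild-type CP (median -1.16), with sums of 9518 to 20052 over the 6 P21 arrays and 31167 to 36101 over the 6 P0 arrays. Dividing-cell markers were lower at P21 for 11 of 11 in tumors and 10 of 11 in wild-type CP. Their part in the age differences was not tested.

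**Figure D5:**
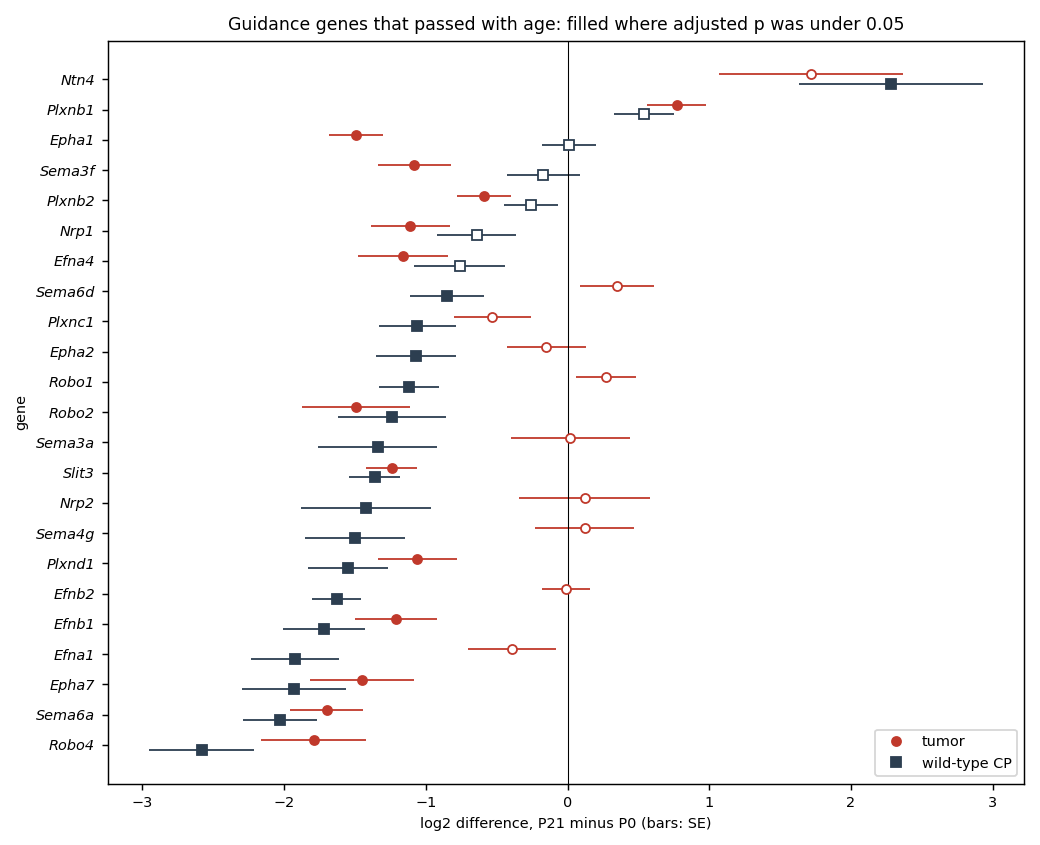
Difference in log2 normalized signal between P21 and P0 (P21 minus P0) in tumors (red circles) and wild-type CP (dark squares) for the 23 guidance genes that passed in either, with SE bars (n = 3 arrays per group). Filled points passed an adjusted p of 0.05, and Robo4 and Sema6a are the lowest in both genotypes.

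Other genes of these pathways were taken from 4 lists, and their P21 values all include tumor sample 1. The lists were chosen with earlier results of these data known. For comparison with the counts in all 4 lists, 17.9% of all genes passed at P21 (10.5% higher and 7.43% lower). At P0 11.3% passed (5% higher and 6.29% lower). Of 30 intracellular effectors tested, 9 were higher and 0 lower in P21 tumors (unadjusted 10 higher and 2 lower), and 1 was higher at P0. The first 4 by adjusted p at P21 were genes of the CRMP family, cytosolic proteins that relay semaphorin signals to the cytoskeleton, namely Dpysl4 (3.47 ± 0.32, 11.1-fold, adjusted p = 1.42e-05), Dpysl5 (2.33 ± 0.25, 4.32e-05), Dpysl2 (1.75 ± 0.20, 8.14e-05) and Dpysl3 (2.58 ± 0.31, 0.000115). Dpysl4 had 12.47, 11.32 and 11.08 in P21 tumors, against 8.22, 7.96 and 8.27 in P21 wild-type CP, with the highest value in tumor sample 1. Their tumor effects were larger at P21 than at P0, by 2.60, 2.17, 1.31 and 1.82 (adjusted p = 0.00713, 0.00467, 0.0224 and 0.0379). At P0 the gene that passed was Vav2, which acts downstream of Eph receptors (0.67 ± 0.19, adjusted p = 0.0434). The list median was 0.05 at P21 and 0.05 at P0.

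Of 13 co-receptors and adhesion partners, 3 were higher and 1 lower in P21 tumors (median 0.24), and 1 was higher and 2 lower at P0 (median -0.09). Gpc1, a heparan sulfate proteoglycan that binds Slits, was higher at both ages (2.56 ± 0.27 at P21, adjusted p = 4.27e-05, and 2.93 ± 0.27 at P0, adjusted p = 3.82e-05). Its signals were 14.57, 14.86 and 14.60 in P21 tumors, against 11.93, 12.27 and 12.17 in P21 wild-type CP. The adhesion molecule Alcam was higher at P21 (1.91 ± 0.22, adjusted p = 6.66e-05), with a tumor effect 1.86 ± 0.30 larger than at P0 (adjusted p = 0.00505). Cd72, a receptor of Sema4d on immune cells, was higher at P21 (1.15 ± 0.32, adjusted p = 0.0232). The syndecan gene Sdc1 was lower at both ages (adjusted p = 0.000979 at P21, where no tumor array detected it, and 0.0333 at P0), and the adhesion molecule Cntn1 was lower at P0 (-0.91 ± 0.26, 0.0435). Of 8 relatives of the netrin and repulsive guidance molecule families, Ntng1, a membrane-anchored netrin, was higher at P21 (2.41 ± 0.27, adjusted p = 6.06e-05) and at P0 (1.28 ± 0.27, 0.0096). Of 5 FLRT and latrophilin genes, which bind one another and Unc5 receptors, 2 were higher at P21, Flrt1 (2.27 ± 0.34, adjusted p = 0.00058) and Adgrl3 (1.78 ± 0.31, 0.00146), and 0 passed at P0 in limma (unadjusted 2).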

How the data were processed

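The 12 pooled tissue samples, 3 per group, were mapped to array columns through the labels. The deposited table of scanner values gives, per the file headers, a detection p-value and an average bead intensity for each of 45281 probes, the intensity being linear and without normalization. The authors also deposited normalized intensity values, 1 per probe and array, which kept the rank order of each array (Spearman 1). The sources used here do not name the normalization, and the table served as an alternative. No table deposited by the authors holds log2 values, which were computed here.

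With limma 3.58.1 in R 4.3.3, background was corrected by normexp from the detection p-values (936 inferred negative controls per array, offset 16), followed by quantile normalization and log2. Of 24000 probes detected at p under 0.05 on at least 3 arrays, 20021 had 1 gene symbol. Of the probes with 1 symbol, names were updated through a RefSeq table for 34807 by Entrez ID and 11 by accession, and 67 kept the annotation's. The brightest probe represented a gene. For 26 guidance genes several probes were kept, and in the tumor comparisons and the interaction 0 genes had probes that passed in opposite directions.

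One mean per group was fitted over 12 arrays (8 residual and 4.19 prior degrees of freedom, Benjamini-Hochberg over 12379 genes, threshold 0.05). Where no array of a group detected a gene, a bound replaces the fold. It sets the mean of the brighter group against a floor made array by array from the dimmest detected probe, or from the gene itself if that was brighter. The number of arrays limits the precision. The calculation was tested on simulated data.

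Named with all samples are genes past 0.05 in a tumor comparison or the interaction, up to 8 per direction for age, and up to 4 per pathway list. The genes and lists were chosen with earlier results of these data known. Labels number the replicates alike in tumor and wild type. Deviations of same-numbered samples from their group means correlated at P0 with r = 0.424, 0.431 and 0.104, each over 0.1, and were taken as paired there by that rule, though number 3 is close to 0.097 for a differently numbered pair. At P21 r was -0.082, -0.028 and -0.138, and the numbers did not pair the samples. The main fit has no block. Alternatives for the age genes were added after the data were seen. Probe positions within genes were not used here.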

Additional observations from a re-analysis of the deposited data

Results flagged for a closer look

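The tumor effect differed between P21 and P0 for 3 of 47 guidance genes by the test of the difference itself (limma, adjusted over all genes). That is 6.38%, against 4.4% of all genes. For Efnb2 the difference of effects, P21 minus P0, was 1.61, with tumors above wild-type CP on all arrays at P21 and below it on all arrays at P0. For Robo1 it was 1.39, with no overlap of arrays at P21 and overlapping arrays at P0. For Epha1 it was -1.51, with tumors below wild type on all arrays at both ages and by more at P21. These values rest on 3 arrays per group. The call was kept in 20 of 20 alternatives for Efnb2, 16 of 21 for Robo1 and 19 of 20 for Epha1. A second Robo1 probe, detected on 5 arrays, gave 0.37 (adjusted p over all probes 0.685).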

How the results depend on the processing

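Over all alternatives, those for age genes being chosen after seeing the data, 1770 gene values were recomputed, of which 1618 stayed on their side of the threshold, 130 lost it, 22 gained it and 0 reversed. Of 58 passing gene results 33 kept their call throughout (14 of 20 at P21, 2 of 5 at P0, 1 of 3 for the difference of effects, 6 of 13 with age in tumors and 10 of 17 with age in wild type). Apart from single arrays left out, the number of guidance genes past the threshold moved by over 1.5 times in 4 cases. With probes detected on all 12 arrays, where 25 guidance genes could be tested, the difference of effects passed for 1 gene and age in wild type for 9. With the mean of probes the difference of effects passed for 1, and with the P0 arrays fitted alone the tumor comparison passed for 2. The first of these tests fewer genes and the last uses fewer arrays, and for the mean of probes the cause was not tested. Leaving out single arrays gave 14 to 18 genes at P21, 3 to 7 at P0, 2 to 4 for the difference of effects, 9 to 12 with age in tumors and 11 to 16 with age in wild type. The lowest P0 count came without P0 tumor sample 1 or 3. In a fit with a replicate block, 22 genes passed at P21, among them all 20, 4 at P0 (3 higher, 1 lower) and 4 for the difference of effects. At P0 the block lost Ephb6 (adjusted p = 0.0556) and Plxnb2 (0.0624) and added Sema3c (0.0336). It changed no other call among the 21 guidance genes that passed at P0 or P21 in the main fit. The genes it added at P21 and for the difference of effects lie outside those 21 and are not identified here. The block lies within an age and gives no value for the age comparisons. Signals near background limit Ephb6, Epha1, Efnb2, Nrp2 and Sema3c among the genes that passed between tumor and wild type, each undetected on at least 1 array.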

Other observations

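Some guidance genes had a second probe that passed, with adjustment over all kept probes, where the brightest probe did not. At P0 a second Epha7 probe was higher in tumors by 1.49 (adjusted p = 0.0121) and another, detected on 4 arrays, by 1.34 (0.016), against 0.74 (0.266) for the brightest. A second Sema3b probe was lower at P0 (-0.95, adjusted p = 0.0364), as was a second Sema3c probe, detected on 3 arrays (-0.96, 0.0314). Robo2 had a probe, detected on 10 arrays, that was lower in P21 tumors (-0.78, adjusted p = 0.03) and another, on 3 arrays, that was lower at P0 (-0.93, 0.0128). Which transcripts these probes report was not tested.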
